A study of Mus musculus with 17 samples.

Results

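The Fos and Jun genes encode the basic leucine zipper proteins that pair up to form the transcription factor AP-1. Fos proteins (encoded by Fos, Fosb, Fosl1 and Fosl2) bind DNA only after pairing with a Jun protein, whereas Jun proteins (encoded by Jun, Junb and Jund) can also pair with each other. In neurons, Fos, Fosb, Jun and Junb are immediate early genes: synaptic activity and calcium entry switch them on within minutes through kinases that act on factors already bound to their promoters, and their RNA is short lived. A shortened splice product of Fosb, ΔFosB, is a stable protein that builds up in the brain's reward circuitry after repeated drug exposure; the gene-level counts used here cannot tell it from full-length Fosb. The family was taken as the rows of the deposited count tables with these symbols, and all 7 were present among 25239 genes in each of 3 tables.

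The 17 libraries came from mice of the DAT-cre line, in which the dopamine transporter promoter drives Cre recombinase in dopamine neurons. Every mouse entered oDASS, which the study describes as a protocol for addiction, and no group without the protocol was analysed here. Perseverers are the animals the submitters class as addicted and renouncers those they class as not addicted. The 6 groups were dissections of the orbitofrontal cortex (OFC) after oDASS (3 perseverer and 3 renouncer libraries), dissections of the medial prefrontal cortex (mPFC) after oDASS (3 perseverer and 3 renouncer libraries), and brain tissue imprints of the OFC taken before oDASS (2 perseverer and 3 renouncer libraries). An imprint is a trace of tissue lifted from the living brain, so the 5 imprints are labelled by a behaviour scored later. The labels used here give no age or sex. The labels number the replicates without saying which came from the same mouse, so the p-values below measure the spread between these libraries.

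The dissections held 12392731 to 20945108 counts and the imprints 8960549 to 10662666. The 6 adult haemoglobin genes took 0.0253% to 0.0787% of counts in dissections. In imprints they took 85.4% and 90.1% of counts in perseverer replicates 1 and 2, and 29.7%, 90.7% and 89.7% in renouncer replicates 1, 2 and 3 (95% Wilson intervals 85.39% to 85.44%, 90.07% to 90.11%, 29.69% to 29.75%, 90.64% to 90.68% and 89.66% to 89.69%, counting error only). That left 980536 to 1306627 counts for all other genes in 4 imprints and 6556052 in renouncer replicate 1, which stands apart from the other imprints. Neuronal markers (Snap25, Syt1, Rbfox3 and Stmn2) were all present in every group and summed to 411.7 to 2291 counts per 1000000 (CPM) in imprints and 3508 to 7044 CPM in dissections. Levels below are CPM outside the haemoglobin genes, or transcripts per 1000000 (TPM, also corrected for gene length) where genes are compared with each other.

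In both cortical areas the family's RNA was mostly Jund and Junb. Per length, Jund led in the OFC dissections with 147 ± 22.2 TPM (SD, n = 6), ahead of Junb with 128 ± 49.2 TPM, but their ranges overlapped and Jund was the higher in 5 of 6 libraries. In the mPFC dissections the order was the other way: Junb had 209 ± 49.3 TPM and Jund 166 ± 22.1 TPM, with Junb above Jund in 6 of 6 libraries although the ranges overlapped. Fos came next, at 47.5 ± 17.9 TPM in the OFC and 69.4 ± 18.5 TPM in the mPFC, and Jun followed at 40.5 ± 7.70 TPM in the OFC and 60.0 ± 16.2 TPM in the mPFC. Fos and Jun overlapped in range in both areas, with Fos the higher in 4 of 6 libraries of each. The other 3 genes were much lower. Fosl2 (Fra-2), which like Fosl1 lacks the strong activation domain of Fos, had 6.37 ± 1.27 TPM in the OFC and 5.74 ± 1.68 TPM in the mPFC. Fosb had 2.48 ± 0.888 TPM in the OFC and 5.10 ± 1.61 TPM in the mPFC, and Fosl1 (Fra-1) had 2.18 ± 0.809 TPM in the OFC and 1.91 ± 1.06 TPM in the mPFC. Neighbours in this lower range overlapped in all but 1 case, Fosl2 above Fosb in the OFC.

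**Figure D1:**
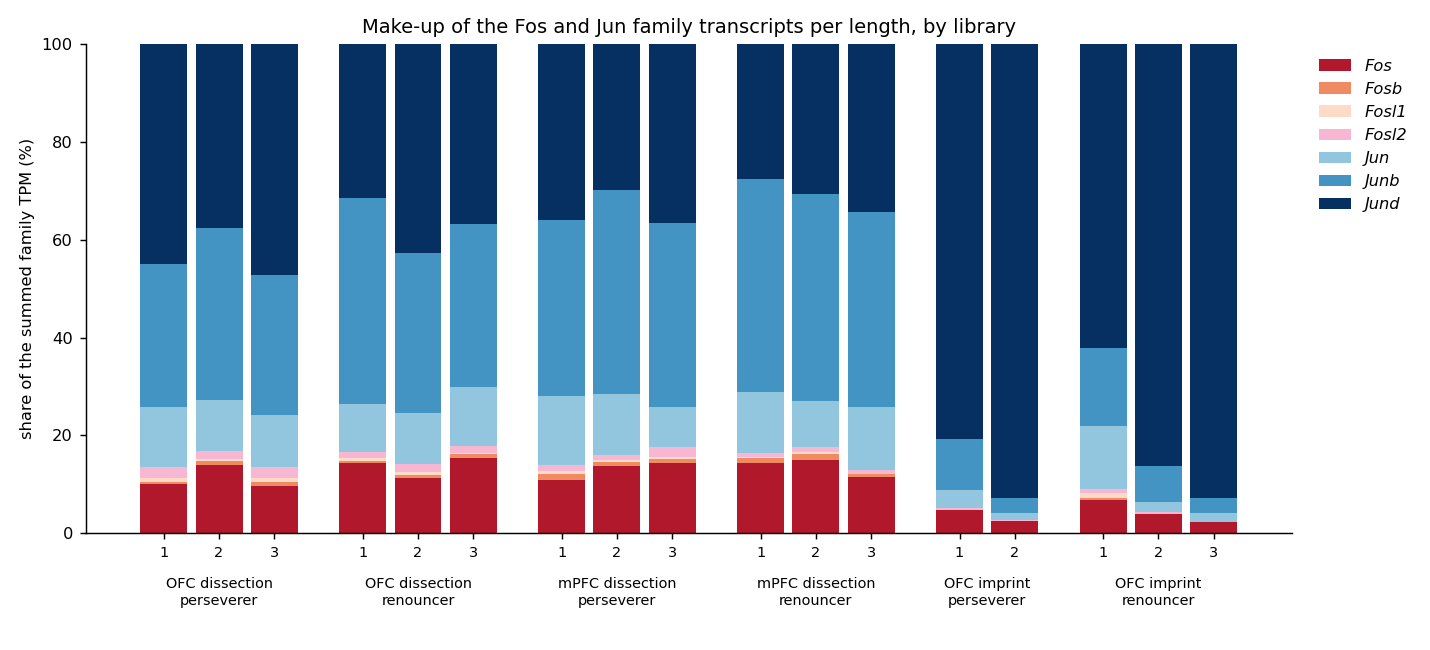
Share of the summed TPM of the 7 family genes (y axis, percent) taken by each gene in each of the 17 libraries, grouped by tissue and behaviour with replicate numbers on the x axis. Jund took 31.4% to 47.3% of the family's RNA in OFC dissections, 27.5% to 36.6% in mPFC dissections and 62.1% to 92.8% in OFC imprints.

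The genes lie on 6 chromosomes of the GRCm38 (mm10) assembly: Fos at chr12:85473890-85477273 on the plus strand, Fosb at chr7:19302696-19310051 on the minus strand, Fosl1 at chr19:5447547-5455946 on the plus strand, Fosl2 at chr5:32135801-32157842 on the plus strand, Jun at chr4:95049034-95052222 on the minus strand, and Junb (chr8:84974484-84978718, minus strand) and Jund (chr8:70698949-70700616, plus strand) on the same chromosome. The library kit keeps no strand, so reads from a gene and from an overlapping gene on the other strand cannot be told apart. Of the exon bases of Fosl1, 57.2% overlap Ccdc85b on the opposite strand, and the values of Fosl1 are uncertain for that reason. The exon overlap is 7.52% for Junb (with Prdx2) and 7.28% for Jun (with the antisense gene Junos), and none for Fos, Fosb and Fosl2. In the GENCODE annotation 52.6% of the exon bases of Jund overlap the gene model Gm11175. Whether the deposited counts used that gene model is not known, so the values of Jund may be uncertain too. All positions and overlaps here are GENCODE's, and the deposited gene lengths differ from its exon bases for some genes. Jund has 2878 deposited bases against 1668 in GENCODE and Fosl1 1705 against 2033, while Jun has 3187 against 3189. The overlaps may differ for the sequence that was counted.

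Perseverer and renouncer OFC dissections did not differ in any family gene at an adjusted p under 0.05 by edgeR's quasi-likelihood test with Benjamini-Hochberg adjustment. The count was 0 of 7 family genes, beside 0 of 14621 genes tested (0.0%). At an unadjusted p under 0.05, edgeR had 377 of all genes, DESeq2 420 and limma 1021, and neither DESeq2 nor limma called a gene after adjustment. In bulk tissue, fewer cells of a type and less RNA per cell cannot be told apart, and this holds for every level below.

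Among the genes that activity induces, Fos had 29.7, 58.4 and 28.2 CPM in perseverer OFC dissections 1, 2 and 3, against 62.0, 33.7 and 48.6 CPM in renouncer OFC dissections 1, 2 and 3. Junb had 75.7, 129 and 72.9 CPM in the perseverer libraries and 159, 85.4 and 91.6 CPM in the renouncer libraries. For both genes perseverer 2 and renouncer 1 were the highest libraries, and the groups overlapped. The log2 fold change of perseverers over renouncers was -0.29 ± 0.28 (SE) for Fos and -0.25 ± 0.26 for Junb (edgeR adjusted p = 0.951 for each). Jun had 55.1, 65.4 and 46.2 CPM in perseverers and 64.9, 47.5 and 57.5 CPM in renouncers, with a log2 fold change of -0.01 ± 0.17. Fosb, the gene of ΔFosB, had 2.82, 6.55 and 4.24 CPM in perseverers and 3.10, 3.50 and 4.31 CPM in renouncers. Its groups overlapped, and the 95% interval of its log2 fold change, -0.42 to 1.11, spans a fall and a rise.

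Fosl2, Jund and Fosl1 had positive fold changes, also without passing the test. Fosl2 had 18.0, 19.1 and 18.0 CPM in perseverer OFC dissections, against 15.7, 13.5 and 13.1 CPM in renouncer OFC dissections. It was the only family gene whose groups did not overlap here, with every perseverer library above every renouncer library, as for 4.17% of all genes tested (4.75% had every perseverer library below). Its log2 fold change was 0.40 ± 0.17 (95% interval 0.03 to 0.78), with an adjusted p of 0.951 by edgeR. Jund, whose RNA is present in unstimulated cells, had 182, 215 and 188 CPM in perseverers and 186, 175 and 159 CPM in renouncers (log2 fold change 0.20 ± 0.14, overlapping groups). Fosl1 had 1.94, 1.20 and 2.19 CPM in perseverers and 2.10, 1.43 and 0.783 CPM in renouncers, from 12 to 44 counts a library, and the groups overlapped.

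**Figure D2:**
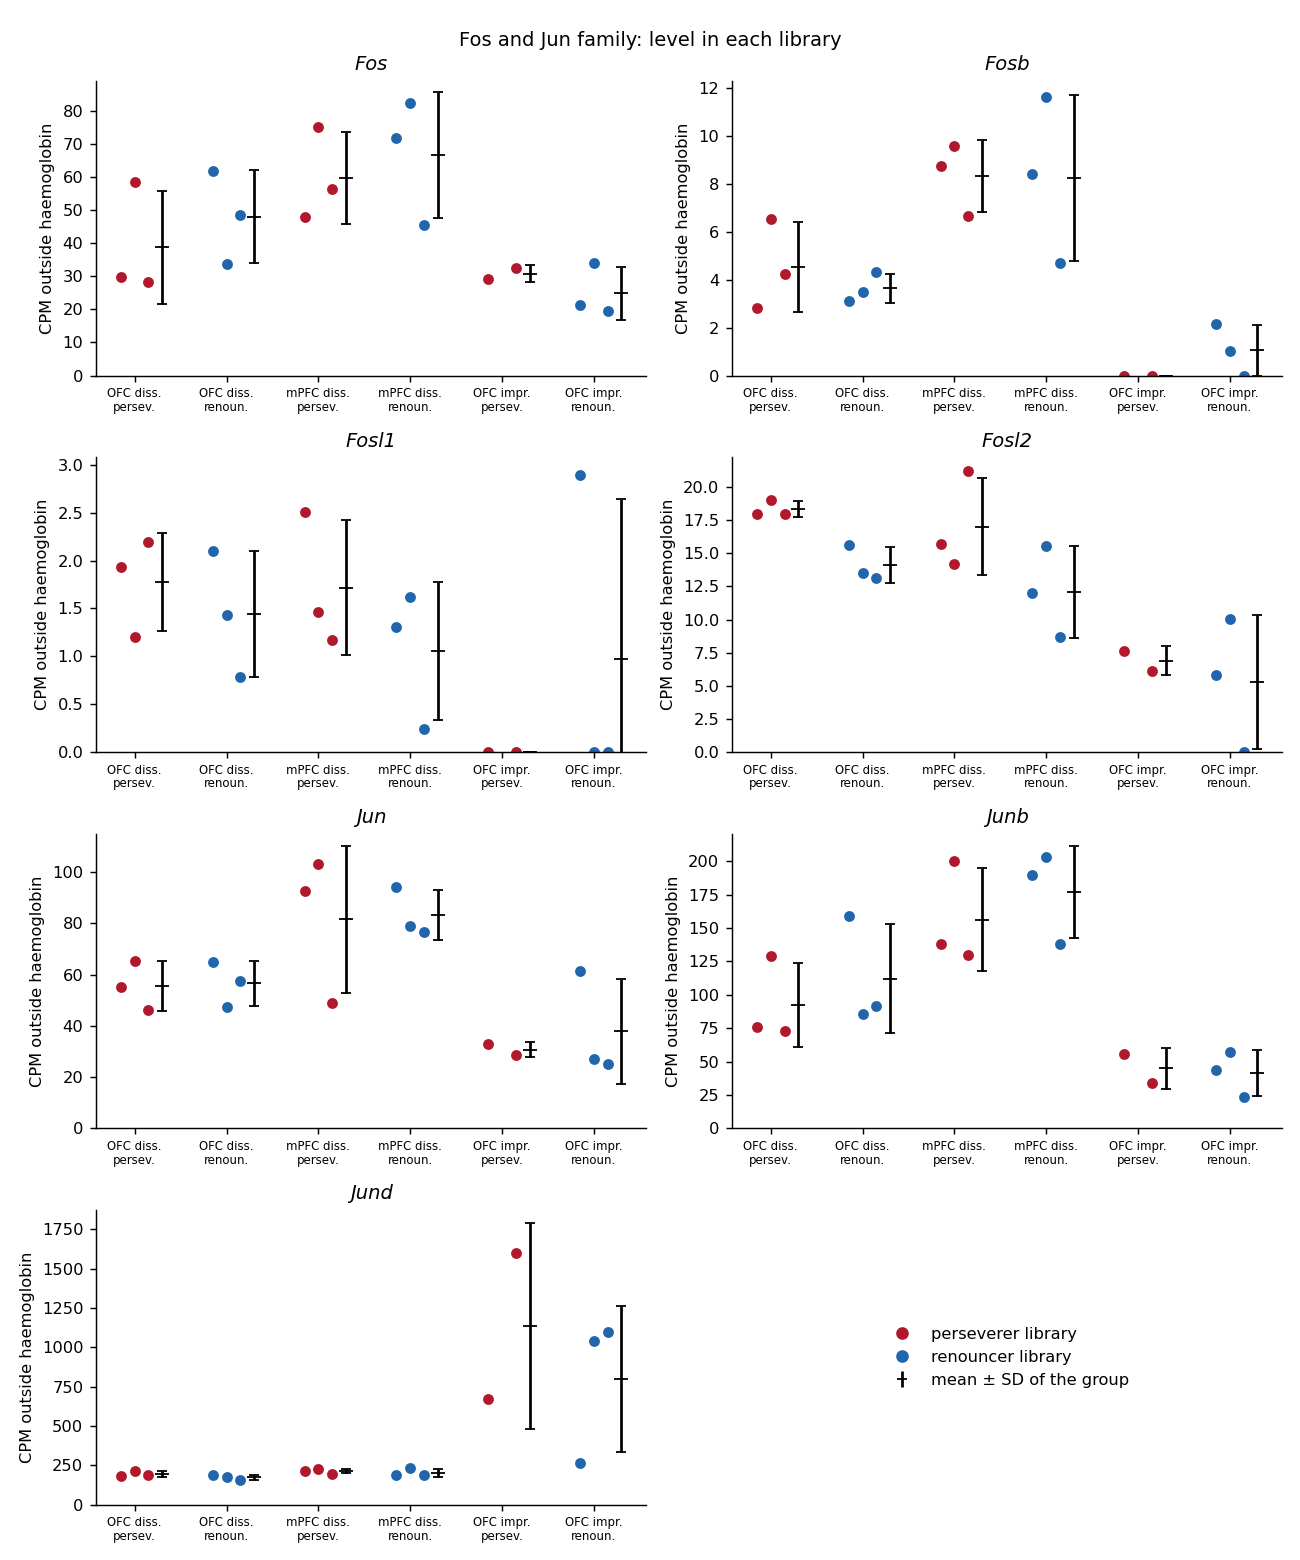
Level of each family gene in each library (y axis, CPM outside the haemoglobin genes; each panel has its own scale from 0) for the 6 groups on the x axis; points are libraries in replicate order and the black mark is the group mean with its SD. The separation of Fosl2 in OFC dissections, the higher Fosb and Junb in mPFC dissections and the high Jund in imprints can be seen.

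The mPFC dissections gave the same count, 0 of 7 family genes beside 0 of 14375 genes tested (0.0%; unadjusted p under 0.05 for 639 genes by edgeR, 767 by DESeq2 and 2139 by limma, none called by any of these after adjustment). Fos had 47.9, 75.2 and 56.6 CPM in perseverer mPFC dissections and 71.8, 82.6 and 45.5 CPM in renouncer mPFC dissections. Fosb had 8.76, 9.58 and 6.65 CPM in perseverers and 8.40, 11.6 and 4.70 CPM in renouncers. In both genes the renouncer libraries held the highest and the lowest value, and no family gene had groups apart in the mPFC (of all genes tested, 3.97% had every perseverer library higher and 7.78% every one lower). The log2 fold changes were -0.10 ± 0.24 for Fos and 0.06 ± 0.36 for Fosb (edgeR adjusted p = 0.972 and 0.989).

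Junb had 138, 200.4 and 130.01 CPM in perseverer mPFC dissections and 189.8, 203 and 138 CPM in renouncer mPFC dissections (log2 fold change -0.13 ± 0.21). Jun had 92.5, 103 and 48.9 CPM in perseverers and 94.2, 79.1 and 76.5 CPM in renouncers, with perseverer 3 below every other mPFC library. Fosl2 had 15.7, 14.2 and 21.2 CPM in perseverers and 12.01, 15.6 and 8.68 CPM in renouncers. Here the Fosl2 groups overlapped, since renouncer 2 lay above perseverer 2. Its log2 fold change was 0.56 ± 0.29 (95% interval -0.09 to 1.21; edgeR adjusted p = 0.943). Jund ranged from 197 to 223 CPM in perseverers and from 186 to 231 CPM in renouncers, and Fosl1 from 1.17 to 2.51 CPM in perseverers and from 0.239 to 1.61 CPM in renouncers.

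**Figure D3:**
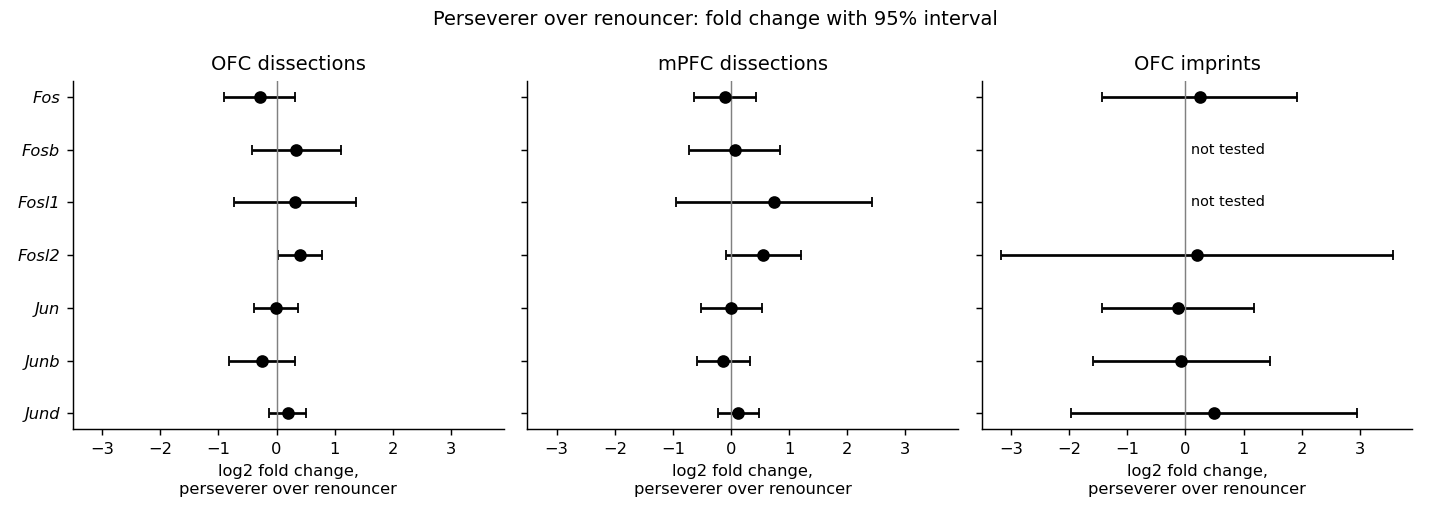
Log2 fold change of perseverers over renouncers (x axis) for each family gene (y axis) in OFC dissections, mPFC dissections and OFC imprints, from edgeR with 95% intervals as bars. The interval of Fosl2 in OFC dissections (0.03 to 0.78) leaves out 0 before adjustment over all genes, and all other intervals span 0; Fosb and Fosl1 were too low to be tested in imprints.

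In the OFC imprints before oDASS, 5 of the 7 family genes passed the filter on low counts and 0 passed the test, beside 0 of 10530 genes tested (0.0%; unadjusted p under 0.05 for 181 genes by edgeR, 237 by DESeq2 and 529 by limma, none called after adjustment). Fos rested on 38 and 32 counts in perseverer imprints 1 and 2 and on 140, 34 and 21 counts in renouncer imprints 1, 2 and 3. These are 29.1 and 32.6 CPM in perseverers and 21.4, 34.1 and 19.4 CPM in renouncers, with overlapping groups. Jund, by far the most counted family gene in imprints, had 673 and 1599 CPM in perseverers and 266, 1038 and 1095 CPM in renouncers, again with overlap.

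Junb had 55.9 and 33.7 CPM in perseverer imprints and 43.9, 57.2 and 23.1 CPM in renouncer imprints. Jun had 32.9 and 28.6 CPM in perseverers and 61.5, 27.1 and 24.9 CPM in renouncers. Fosl2 had 7.65 and 6.12 CPM in perseverers and 5.80, 10.04 and 0 CPM in renouncers. In none of the 3 were the groups apart (of all genes tested, 3.87% had every perseverer imprint higher and 4.5% every one lower). Fosb had 0 counts in both perseverer imprints, which allows up to 2.30 and 3.06 CPM (3 counts), and 14, 1 and 0 counts in renouncer imprints 1, 2 and 3. Fosl1 had 0 counts in both perseverer imprints and 19, 0 and 0 counts in the renouncer imprints, so a difference in these genes was not detectable at this depth. The SE of the log2 fold changes of the 5 tested genes was 0.59 to 1.53, so that even Jund (0.50 ± 1.12) had a 95% interval of -1.97 to 2.96.

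Whether the perseverer effect itself differed between tissues was tested directly. Between OFC and mPFC dissections, 0 of 7 family genes and 0 of 15025 genes (0.0%) passed the interaction test by edgeR (225 genes at an unadjusted p under 0.05, 287 by DESeq2 and 693 by limma, none called by either). On the log2 scale the interaction was -0.18 ± 0.41 for Fos, 0.29 ± 0.51 for Fosb, -0.39 ± 0.89 for Fosl1 and -0.14 ± 0.33 for Fosl2. It was -0.00373 ± 0.30 for Jun, -0.11 ± 0.36 for Junb and 0.0851 ± 0.19 for Jund. Between OFC dissections and OFC imprints 0 of 7 family genes passed, beside 0 of 15229 genes (0.0%; 1336 at an unadjusted p under 0.05 by edgeR, 1626 by DESeq2, which called 80 genes, and 788 by limma, which called 0). The smallest p in the family were those of Fosb (unadjusted 0.0548, edgeR adjusted p = 0.570) and Fosl1 (unadjusted 0.0683, edgeR adjusted p = 0.583). Both rest on 0 counts in the perseverer imprints, so the fitted values, 7.56 ± 3.59 for Fosb and 7.62 ± 3.84 for Fosl1, depend on the prior count and measure no size. The interaction was -0.65 ± 0.79 for Fos, -0.12 ± 1.083 for Fosl2, 0.0855 ± 0.49 for Jun, -0.30 ± 0.71 for Junb and -0.34 ± 0.96 for Jund.

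The genes that work beside the family gave no call between perseverers and renouncers either. Of the bZIP genes whose products can pair with a Fos or a Jun protein (the ATF, BATF, JDP2 and MAF proteins), 0 of 10 tested passed in OFC dissections. Their median log2 fold change was 0.08 beside 0.00 over all genes. Of the kinases and promoter-bound factors that act upstream, 0 of 16 passed, and 14 were positive, with a median of 0.17. The smallest p among these was that of Crtc1, a coactivator of CREB, with 242 ± 20.4 CPM in perseverers and 178 ± 33.0 CPM in renouncers (log2 fold change 0.47 ± 0.17, edgeR adjusted p = 0.951). In mPFC dissections 0 of 16 upstream genes passed, 12 were positive, the median was 0.13, and Crtc1 had 256 ± 73.3 CPM in perseverers and 175 ± 38.1 CPM in renouncers (0.61 ± 0.25, edgeR adjusted p = 0.943).

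Of 15 other immediate early genes, 0 passed in OFC dissections, mPFC dissections or, where 11 were tested, in imprints. In mPFC dissections Nr4a2, an orphan nuclear receptor gene, had 31.8 ± 7.61 CPM in perseverers and 17.5 ± 4.07 CPM in renouncers (log2 fold change 0.90 ± 0.25, edgeR adjusted p = 0.943). In OFC imprints Arc, which encodes a synaptic capsid-like protein, had 52.5 ± 38.3 CPM in perseverers (n = 2) and 165 ± 49.0 CPM in renouncers (log2 fold change -1.80 ± 0.55, edgeR adjusted p = 0.9999). Of genes that AP-1 has been linked to, 0 of 9, 0 of 8 and 0 of 7 tested passed in OFC dissections, mPFC dissections and OFC imprints.

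The activity-induced family genes had lower mean levels in OFC than in mPFC dissections, without passing the threshold by edgeR in the design used here, while other tools called some of them. By edgeR 0 of 7 family genes passed, beside 264 of 15025 genes called (1.76%), 130 of them lower in the OFC (0.865%). DESeq2 and limma each called 3 family genes lower in the OFC, the same 3 in both: Fosb, Jun and Junb. Of all genes, DESeq2 called 327 lower in the OFC (2.18%) and limma 415 (2.76%). For Fosb, Jun and Junb the adjusted p was 0.00628, 0.0270 and 0.00842 by DESeq2, 0.00912, 0.00595 and 0.00780 by limma, and 0.0577, 0.0805 and 0.0600 by edgeR. With same-numbered libraries fitted as pairs, edgeR called Fos, Fosb, Jun and Junb, beside 593 genes called higher and 537 called lower of 15025. Such libraries carry neighbouring codes in the labels, but no label says that they come from the same mouse. The unpaired fits treat all 12 dissections as independent, so they would ignore such a pairing.

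Fosb had the largest difference of the 7. Its lowest, median and highest library were 2.82, 3.87 and 6.55 CPM in the OFC and 4.70, 8.58 and 11.6 CPM in the mPFC, which overlap, and its log2 fold change was -1.003 ± 0.25. Junb had 72.9, 88.5 and 159 CPM in the OFC against 130.01, 164 and 203 CPM in the mPFC, with a log2 fold change of -0.69 ± 0.17. Jun had 46.2, 56.3 and 65.4 CPM in the OFC against 48.9, 85.8 and 103 CPM in the mPFC, with a log2 fold change of -0.53 ± 0.15. The highest OFC libraries lay within the mPFC range for all 3 genes (of all genes tested, 0.985% had every OFC library higher and 0.819% every one lower). Fos itself had 28.2, 41.2 and 62.0 CPM in the OFC against 45.5, 64.2 and 82.6 CPM in the mPFC (log2 fold change -0.53 ± 0.20, edgeR adjusted p = 0.217), and neither DESeq2 nor limma called it.

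The other family genes showed little of this. Jund had 159, 184 and 215 CPM in the OFC against 186, 206 and 231 CPM in the mPFC (log2 fold change -0.15 ± 0.09, edgeR adjusted p = 0.486). Fosl2 had 13.1, 16.8 and 19.1 CPM in the OFC against 8.68, 14.9 and 21.2 CPM in the mPFC (0.18 ± 0.16), and Fosl1 had a log2 fold change of 0.27 ± 0.43.

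Leaving out 1 library brought family genes past edgeR's threshold in 4 cases, each time lower in the OFC. Fosb and Junb passed without perseverer OFC dissection 2, where 0.797% of all genes were called lower, and Junb without renouncer OFC dissection 1 (0.608%). Fosb, Jun and Junb passed without perseverer mPFC dissection 3 (1.51%), and Fosb and Junb without renouncer mPFC dissection 3 (0.987%). Markers of oligodendrocytes moved with the area: all 4 (Mbp, Mog, Mobp and Mag) were detected, and they summed to 4583 to 17344 CPM in the OFC and 1460.3 to 6609 CPM in the mPFC. Markers of striatal neurons, 5 of 5 detected, summed to 168 to 214 CPM in the OFC and 117 to 174 CPM in the mPFC. Their part in the lower family levels was not tested.

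**Figure D4:**
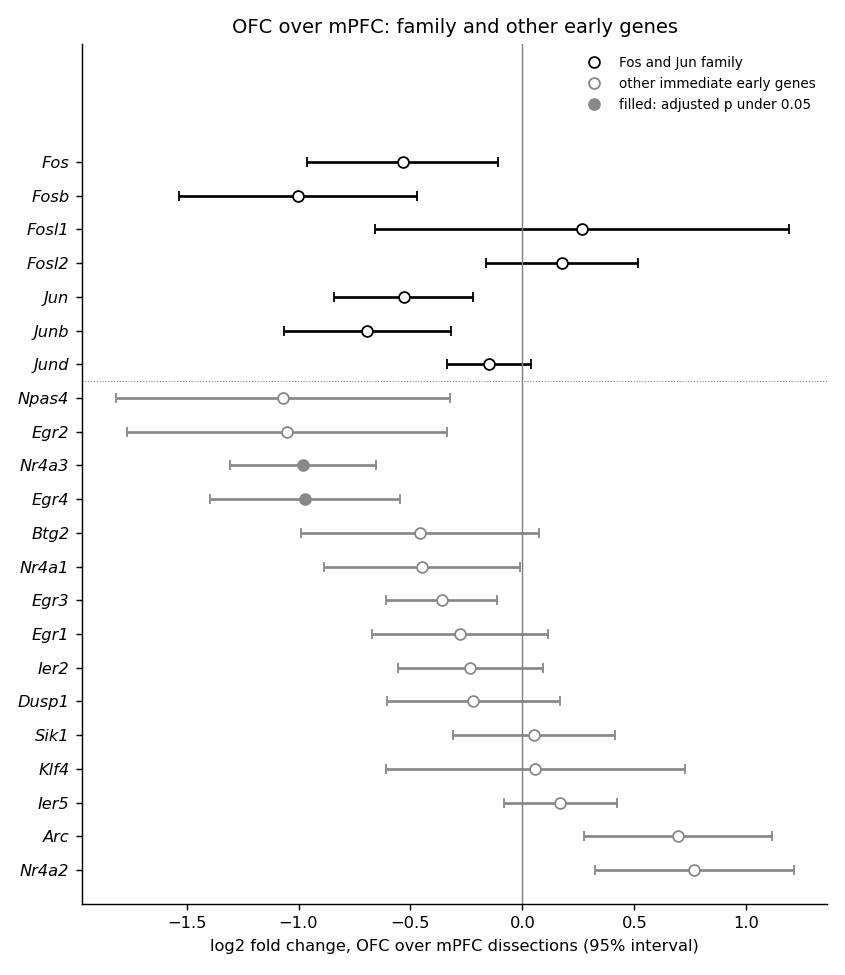
Log2 fold change of OFC over mPFC dissections (x axis, edgeR with 95% intervals) for the 7 family genes (black, above the dotted line) and 15 other immediate early genes (grey, ordered by size); filled points passed an adjusted p under 0.05. Fosb, Junb, Jun and Fos lie below 0 with intervals that leave out 0, and among the others Nr4a3 and Egr4 passed. Nr4a2 and Arc lie above 0 with intervals that leave out 0.

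Among 15 other immediate early genes, 2 passed, both lower in the OFC, where 0.865% of all genes tested were called lower. Of the 15, 10 had negative and 5 positive fold changes. The list's median log2 fold change was -0.28, beside -0.53 for the family and 0.00 for all genes. The largest positive ones, higher in the OFC without passing, were Nr4a2 (0.77 ± 0.21, edgeR adjusted p = 0.0791) and Arc (0.70 ± 0.20, edgeR adjusted p = 0.0954). Nr4a3, of the same nuclear receptor group as Nr4a2, had 10.4 ± 2.24 CPM in the OFC and 21.0 ± 4.53 CPM in the mPFC (n = 6 each; log2 fold change -0.98 ± 0.15, edgeR adjusted p = 0.00369). Egr4, a zinc finger early gene, had 70.9 ± 25.6 CPM in the OFC and 140.2 ± 41.8 CPM in the mPFC (-0.97 ± 0.20, edgeR adjusted p = 0.0216). Of the upstream genes 1 of 16 passed, beside 1.76% of all genes tested. This was Mapk3, the kinase ERK1 that phosphorylates the Elk factors at the Fos promoter, with 84.9 ± 10.05 CPM in the OFC and 149.7 ± 32.3 CPM in the mPFC (-0.79 ± 0.14, edgeR adjusted p = 0.00850). Of the bZIP partners 1 of 10 passed, beside the same share of all genes. Jdp2, whose protein pairs with Jun proteins and represses AP-1 sites, was higher in the OFC, with 67.8 ± 4.58 CPM against 44.4 ± 10.3 CPM in the mPFC (0.64 ± 0.13, edgeR adjusted p = 0.0209). Of the AP-1-linked genes 0 of 9 passed; the opioid peptide genes had the smallest p, Penk with 98.6 ± 20.0 CPM in the OFC and 67.5 ± 19.2 CPM in the mPFC (edgeR adjusted p = 0.0792) and Pdyn with 29.5 ± 9.92 CPM in the OFC and 49.0 ± 15.7 CPM in the mPFC (edgeR adjusted p = 0.138).

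Fos and Junb varied together across the OFC libraries, while in the mPFC a similar correlation did not pass the test. Over the 6 OFC dissections the correlation of log2(CPM + 1) was r = 0.932 (exact permutation test over 720 pairings, two-sided, p = 0.00139, adjusted p = 0.0167 over 12 relations of Fos with the other family genes), and Spearman's rho was 1 (exact p = 0.00278, adjusted p = 0.0333). Without the 2 libraries farthest from the median of Fos, r was 0.929. Over the 6 mPFC dissections r was 0.918 (exact permutation p = 0.0653, adjusted p = 0.196), rho was 0.829 (exact p = 0.0583, adjusted p = 0.175), and r without the 2 farthest libraries was 0.966. The p for the mPFC was 0.0181 with TMM-scaled CPM.

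Fos and Jun had r = 0.889 in the OFC (exact permutation p = 0.0306, adjusted p = 0.183) and 0.275 in the mPFC (exact permutation p = 0.690, adjusted p = 0.753). Their rho was 0.886 in the OFC (exact p = 0.0333, adjusted p = 0.175) and 0.429 in the mPFC (exact p = 0.419, adjusted p = 0.719). The OFC relation of Fos and Jun rests in part on perseverer 2 and renouncer 1, since r was 0.645 without them. Fos and Fosb had r = 0.386 in the OFC (exact permutation p = 0.475, adjusted p = 0.753) and 0.780 in the mPFC (exact permutation p = 0.0583, adjusted p = 0.196), with rho of 0.200 in the OFC (exact p = 0.714, adjusted p = 0.876) and 0.829 in the mPFC (exact p = 0.0583, adjusted p = 0.175). Relations of Fos with Fosl1, Fosl2 and Jund had exact permutation p-values of 0.251 to 0.808, and r changed sign for Fosl2 in the mPFC (0.238, and -0.681 without the 2 farthest libraries) and for Jund in the OFC (0.223, and -0.992 without them).

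The libraries highest in Fos and Junb had the lowest oligodendrocyte marker sums of their area. In the OFC dissections the oligodendrocyte markers summed to 12367, 4583 and 17344 CPM in perseverers 1, 2 and 3 and to 7102, 11441 and 13184 CPM in renouncers 1, 2 and 3. In the mPFC dissections the sums were 3842, 1460.3 and 5833 CPM in perseverers and 3377, 2068 and 6609 CPM in renouncers. Perseverer 2 and renouncer 1 of the OFC, the highest in Fos and Junb, had the lowest sums there, and perseverer 2 and renouncer 2 of the mPFC, likewise highest, had the lowest sums there. The part of tissue make-up in the shared variation was not tested.

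**Figure D5:**
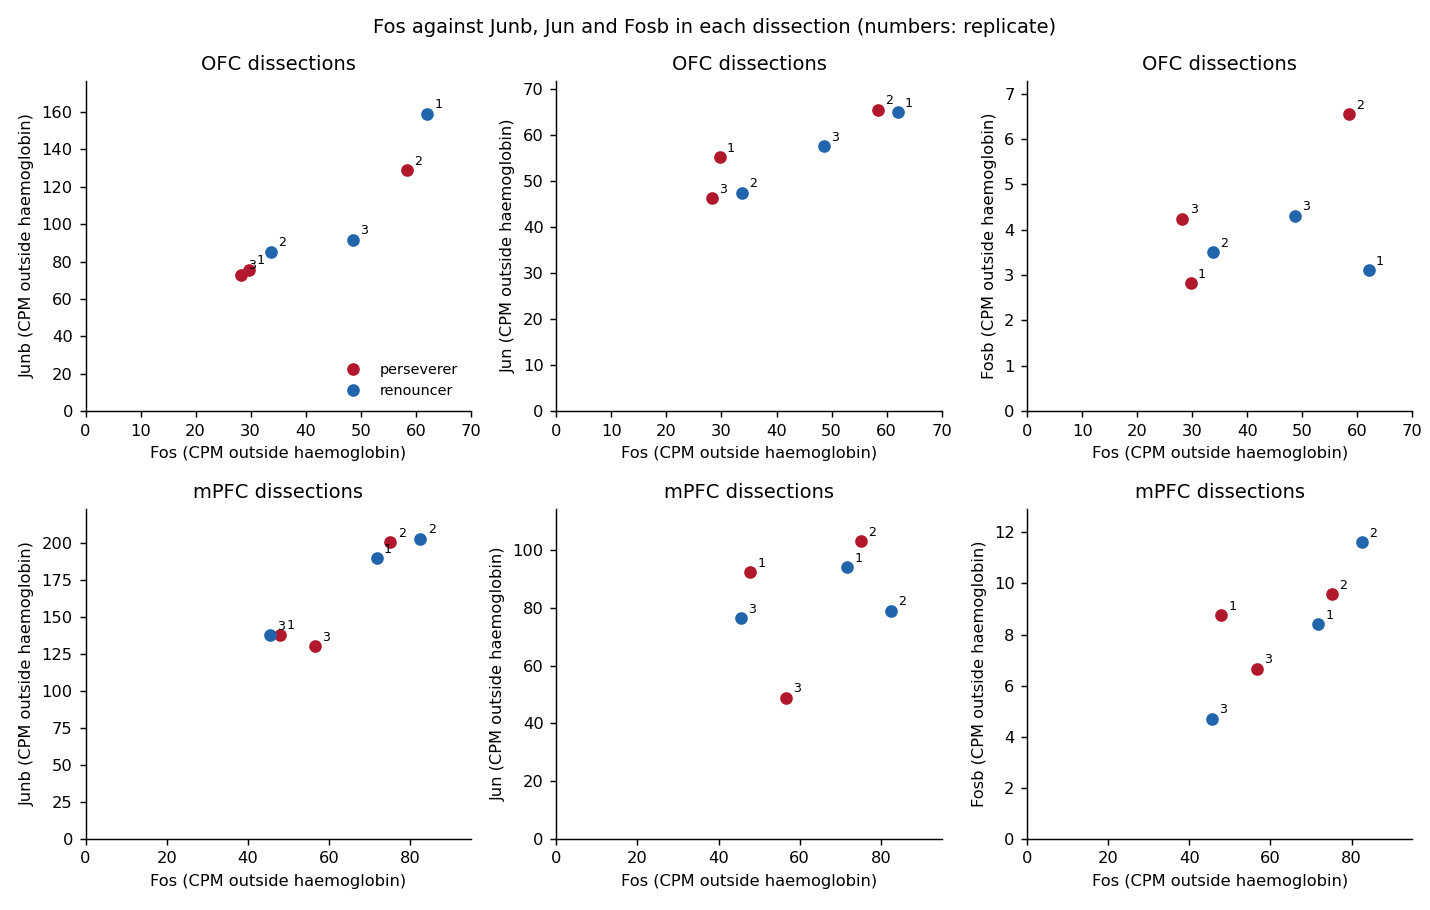
Level of Junb, Jun and Fosb (y axes) against Fos (x axes), in CPM outside the haemoglobin genes, in the 6 OFC dissections (top) and the 6 mPFC dissections (bottom); numbers are replicates. The correlation of Junb with Fos on the log scale was 0.932 in the OFC (adjusted p = 0.0167, exact permutation test) and 0.918 in the mPFC (adjusted p = 0.196), while Fosb in the OFC is scattered (r = 0.386).

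As a description over all 12 dissections with the mean of each area removed, Junb was the gene most like Fos among 11387 genes with a mean of at least 5 CPM (r = 0.927), and Fos had rank 3 for Junb. Outside the family, the genes most like Fos were Shprh (r = 0.911), Nr4a1 (0.909), Stxbp6 (0.908), Sun1 (0.906) and Hdac9 (0.892). Those most like Junb were Rbm10 (0.937), Ndst3 (0.930), Nr4a1 (0.919), Sorcs1 (0.915) and Itpka (0.900). Nr4a1, an early gene of the nuclear receptor group, stood in both lists. Those most like Fosb were Nog (0.931), Map2k6 (0.894), Ptgfrn (0.842), Vat1l (0.832) and Btaf1 (0.827), and none of these was in the lists of Fos and Junb. The libraries compared share tissue and depth differences as well as activity, which this likeness does not separate.

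The promoters of the 4 inducible genes are shown for 2 reasons. Their mean levels were lower in the OFC, without passing edgeR's threshold in the design used here, and Fos and Junb varied together in the OFC. Of the 7 genes, 6 were found in RefSeq's promoter windows (GRCm38.p6), in which the 250 bases before each start were searched on both strands; Fosl1 was not found there. The full cAMP response element TGACGTCA, the AP-1 site TGANTCA and the CArG box of serum response factor lacked exact matches in these 6 stretches. They occur in the same stretch of 1.55%, 6.75% and 1.47% of all 32851 windows. Sequence farther upstream was not searched, so such sites may lie there. RefSeq's starts differ from the GENCODE positions above for some genes. The 120 bases before RefSeq's start lie at chr8:70697619-70697738 for Jund, and at chr5:32136352-32136471 for Fosl2, inside its GENCODE gene. The bases just before the GENCODE starts of Jund and Fosl2 were therefore not searched. The shorter TGACG, which is contained in the full element, was found in Fos, Fosb and Junb and in 17.8% of all windows; it was searched after the first 3 motifs had given nothing, as was TATAA, found in Fos and in 22.8% of all windows. A match is a string of letters and not a measured binding site. The 120 bases before each start follow, 5′ to 3′ on the gene's strand, with TGACG and TATAA in capitals: chr12:85473770-85473889 (plus strand) for Fos, chr8:84978749-84978868 (minus) for Junb, chr7:19310046-19310165 (minus) for Fosb and chr4:95052223-95052342 (minus) for Jun.
Fos: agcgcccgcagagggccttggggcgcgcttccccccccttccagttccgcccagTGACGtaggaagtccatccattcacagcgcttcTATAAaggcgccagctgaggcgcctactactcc
Junb: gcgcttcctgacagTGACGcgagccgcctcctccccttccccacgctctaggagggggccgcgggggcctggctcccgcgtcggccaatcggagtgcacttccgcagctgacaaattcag
Fosb: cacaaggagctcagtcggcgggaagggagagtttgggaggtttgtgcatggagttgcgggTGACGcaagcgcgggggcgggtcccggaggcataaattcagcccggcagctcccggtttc
Jun: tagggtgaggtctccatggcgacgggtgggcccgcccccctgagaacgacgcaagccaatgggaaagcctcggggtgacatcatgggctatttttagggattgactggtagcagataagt
In these windows TGACG ends 62 bases before the start of Fos, 102 before that of Junb and 56 before that of Fosb, and TATAA ends 29 bases before that of Fos. Fos holds a further TGACG upstream of the printed stretch.

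The OFC dissections after oDASS and the OFC imprints before it differ in stage, in way of collection and in blood content at once, and these cannot be told apart. Jund was the only family gene past the threshold by edgeR with TMM scaling, lower in dissections, beside 5106 of 15229 genes called (33.5%; 17.9% higher and 15.6% lower in dissections). Its lowest, median and highest library were 159, 184 and 215 CPM in dissections. In the imprints Jund had 673 and 1599 CPM in perseverers 1 and 2 and 266, 1038 and 1095 CPM in renouncers 1, 2 and 3. No dissection reached the lowest imprint, as for 5.13% of all genes tested; this imprint was renouncer 1, the one with the least haemoglobin. The log2 fold change of dissections over imprints was -3.48 ± 0.49 (edgeR adjusted p = 5.78e-05), and it lay between -3.88 and -2.96 when single libraries were left out.

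Every dissection lay above every imprint for Fosl2 and Junb, a separation that 28.4% of all genes tested showed. For Fosl2 the highest imprint, renouncer 2 with 10.04 CPM, rested on 10 counts, and the lowest dissection had 13.1 CPM. The separation of Fosl2 is therefore uncertain at this depth. The measured values of Fosb were apart as well, but its lowest dissection (2.82 CPM) lies under the 3.06 CPM that 0 counts allow in perseverer imprint 2, so its separation was not resolved at this depth. The sign of the fold change hung on the scaling for Fos and Jun. Fos had 28.2, 41.2 and 62.0 CPM (lowest, median and highest) in dissections, and 29.1 and 32.6 CPM in perseverer and 21.4, 34.1 and 19.4 CPM in renouncer imprints. TMM scaling gave Fos a log2 fold change of -0.25 ± 0.39, and scaling by the totals outside haemoglobin, an alternative chosen after seeing the data, gave 0.68 (edgeR adjusted p = 0.151). Jun likewise had -0.0883 ± 0.25 under TMM and 0.68 under those totals. Under that scaling the median of all genes moved by 0.80, against 0.16 under TMM, and 4 family genes passed: Jund, lower in dissections (-2.36, adjusted p = 0.00013), and Fosb (2.14, adjusted p = 0.0327), Fosl2 (1.41, adjusted p = 0.0499) and Junb (1.26, adjusted p = 0.0101), higher in dissections. Under TMM the log2 fold changes were 1.60 ± 0.70 for Fosb (edgeR adjusted p = 0.0916), 0.61 ± 0.54 for Fosl2, 0.37 ± 0.34 for Junb. Fosl1 had 0.783 to 2.19 CPM in dissections, 0 counts in 4 imprints and 2.90 CPM in renouncer imprint 1, with a log2 fold change of 0.22 ± 0.77 under TMM. The calls over all genes split into 2732 higher and 2374 lower under TMM, and into 4827 higher (30.8%) and 1466 lower (9.35%) under totals outside haemoglobin.

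Jund was lower in dissections under both scalings, together with the blood cell markers. Lymphocyte markers, with Ms4a1 at 0 and the other 5 of 6 detected in OFC dissections, summed to 0.643 to 0.819 CPM there and to 132 to 1761 CPM in imprints. Neutrophil markers, 8 of 9 detected with Cxcr2 at 0 in OFC dissections, summed to 3.70 to 7.48 CPM there and to 356 to 3734 CPM in imprints. Platelet markers, 5 of 5 detected, summed to 171 to 226 CPM in dissections and 1554 to 4404 CPM in imprints. Among the imprints, renouncer 1, the lowest in Jund, had sums of 3734 CPM for neutrophil, 132 CPM for lymphocyte and 3497 CPM for platelet markers. Perseverer 2, the highest in Jund, had 718 CPM for neutrophil, 619 CPM for lymphocyte and 2581 CPM for platelet markers. The haemoglobin genes took 29.7%, 90.7% and 89.7% of counts in renouncer imprints 1, 2 and 3, and 85.4% and 90.1% in perseverer imprints 1 and 2. The part of blood cells of any of these kinds in the level of Jund was not tested.

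Of 15 other immediate early genes 9 were higher and 3 lower in dissections under TMM. Of all genes tested 17.9% were higher and 15.6% lower, shares that also stand beside the counts of bZIP partners below. Arc was higher, with 1088 ± 295 CPM in dissections (n = 6) and 119.8 ± 73.0 CPM in imprints (n = 5; log2 fold change 2.55 ± 0.42, edgeR adjusted p = 0.000188). So were Egr1, a zinc finger early gene, with 383 ± 103 CPM in dissections and 87.9 ± 38.7 CPM in imprints (1.39 ± 0.23) and Ier5 (1.11 ± 0.23). Btg2, an antiproliferative early gene, was lower, with 18.0 ± 3.88 CPM in dissections and 57.3 ± 30.1 CPM in imprints (-2.66 ± 0.43, edgeR adjusted p = 0.000163). Of 11 bZIP partners tested, 1 was higher (Atf2, 1.0003 ± 0.25) and 3 were lower in dissections: Batf, a partner of Jun proteins known from lymphocytes, with 0.355 ± 0.132 CPM in dissections and 10.9 ± 8.23 CPM in imprints (-5.92 ± 0.69, edgeR adjusted p = 6.85e-06), Mafg (-0.99 ± 0.31) and Atf7 (-1.03 ± 0.36). In CPM, without TMM scaling, these last 2 genes were closer: Mafg had 52.3 ± 9.35 CPM in dissections and 56.3 ± 19.8 CPM in imprints, and Atf7 15.5 ± 1.92 CPM in dissections and 20.4 ± 16.4 CPM in imprints.

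Of 16 upstream genes 4 were higher and 2 lower in dissections, beside 17.9% higher and 15.6% lower of all genes tested. The kinase genes Mapk9, which encodes JNK2, and Map2k4, which encodes a kinase that activates JNK, were higher by log2 fold changes of 1.24 ± 0.21 and 1.21 ± 0.21. Elk3 and Elk4, partners of serum response factor, were lower (-1.58 ± 0.41 and -1.27 ± 0.34), with 6.35 ± 1.41 CPM in dissections and 11.4 ± 6.42 CPM in imprints for Elk3, and 9.86 ± 1.56 CPM in dissections and 14.0 ± 6.86 CPM in imprints for Elk4. Of 9 AP-1-linked genes tested, 7 were higher and 1 lower in dissections, beside the same shares of all genes. Penk had 98.6 ± 20.0 CPM in dissections and 3.77 ± 5.19 CPM in imprints (4.15 ± 0.54, edgeR adjusted p = 1.99e-05), Pdyn was higher by 2.82 ± 0.53 and Scg2, a secretogranin gene, by 1.92 ± 0.36. The lower one was Mmp9, a matrix protease abundant in neutrophils, with 1.26 ± 0.501 CPM in dissections and 42.5 ± 39.0 CPM in imprints (-6.04 ± 0.88, edgeR adjusted p = 0.000116).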

How the data were processed

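Per the labels' protocols, a Qiagen kit was used for extraction, and SMART-Seq v4 with Nextera for the libraries, which keep no strand. The authors deposited unnormalized counts per gene beside gene lengths, and every column holds whole numbers. FastQC 0.11.8 and mm10 are named per the submitters' processing notes. For aligner, counter and annotation the entry is: not given in the sources used here. CPM were computed over counts outside the 6 adult haemoglobin genes, and TPM with the deposited lengths. Counts were tested in R 4.3.3 with edgeR 4.0.16 (filterByExpr by group, TMM scaling, robust quasi-likelihood fits, two-sided), on all genes, and p-values were adjusted by Benjamini-Hochberg with a threshold of 0.05; the perseverer over renouncer, OFC over mPFC and dissection over imprint comparisons used only the libraries they compare. The area and stage comparisons averaged over behaviour. The approximate SE is the log2 fold change over the root of its F statistic. DESeq2 1.42.0, limma 3.58.1 (voom with quality weights), RLE scaling, other filters, 1 fit of 17 libraries, haemoglobin removal, a replicate block and leaving out each library were the alternatives, and the code was tested on simulated data. Depth was 8960549 to 20945108 counts a library. Positions come from GENCODE vM21 and promoters from RefSeq GRCm38.p6. All 7 family genes are given in every comparison. Of each other list, up to 4 genes past the threshold with the smallest p could be named, or up to 2 with the smallest p where none passed, and for likeness the 5 genes with the highest r. Nr4a2 and Arc in OFC over mPFC dissections were named outside this rule. The family and the lists were chosen with earlier results of these data known, and 2 genes of the upstream list are matched under their newer symbols Mrtfa and Mrtfb. One upstream gene and one oligodendrocyte marker are not reported here and do not enter the counts and sums of their lists.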

Additional observations from a re-analysis of the deposited data

How the results depend on the processing

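Jund in dissections over imprints kept its direction and its call in every alternative, from -3.88 to -2.96 with single libraries left out. The family genes past the threshold for OFC over mPFC numbered 3 by DESeq2, 3 by limma and 4 with the replicate block (Fos, adjusted p = 0.0359, Fosb, 0.0225, Jun, 0.00531, and Junb, 0.000737), and 0 to 3 with single libraries left out. The numbers were not used as pairs in the main fits. The labels give same-numbered OFC and mPFC libraries neighbouring codes, as 2 areas of 1 mouse might have, but do not say that they come from 1 mouse. Same-numbered OFC and mPFC libraries correlated in their deviations with r = 0.227, 0.740 and 0.747 in perseverers and 0.264, -0.115 and 0.439 in renouncers. As a hint from the data, all 3 perseverer OFC libraries and 1 of 3 renouncer ones correlated best with the mPFC library of their own number; the block changed no other count of family calls. Over all genes that comparison had 264 calls, against 698 by DESeq2, 822 by limma, 21 in 1 fit of 17 libraries, 1130 with the block and 120 to 448 with single libraries left out. For dissections over imprints, family calls numbered 2 in 1 fit of 17 libraries, beside 3846 higher and 2669 lower of 15660 genes. They numbered 4 with totals outside haemoglobin as the scaling, beside 4827 higher and 1466 lower of 15678 genes. With single libraries left out they numbered 1 to 2, beside 4138 to 5488 genes. The 2 came without renouncer imprint 1 (Fosb, edgeR adjusted p = 0.0409), beside 2881 higher and 2607 lower of 15082 genes. RLE scaling split all calls into 2216 higher and 2709 lower. Imprints had 63 calls of all genes in 1 fit of 17 libraries against 0, and the stage interaction 80 by DESeq2, 6 in 1 fit of 17 libraries and 0 to 4 with single libraries left out. The cause was not tested.

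Fold changes near 0 changed sign without passing a threshold. For perseverers over renouncers, limma gave -0.12 for Fosb and 0.000698 for Jun in OFC dissections and 0.25 for Junb in imprints. The block gave -0.0405 for Jun in mPFC dissections and -0.0753 for Fosl2 in imprints, 1 fit of 17 libraries gave 0.0566 for Junb in imprints, and totals outside haemoglobin gave -0.0313 for Jun in mPFC dissections and 0.11 for Junb in imprints. For dissections over imprints those totals gave 0.68 for Fos and 0.68 for Jun. For the area interaction limma gave -0.24 for Fosb and -0.00842 for Jund, the block 0.0436 for Jun, and totals outside haemoglobin 0.00336 for Jun; for the stage interaction DESeq2 gave 0.0660 for Fosl2.

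With single libraries left out, ranges that crossed 0 were as follows. OFC dissections gave -0.126 to 0.0810 for Jun and -0.55 to 0.0623 for Junb, and mPFC dissections -0.31 to 0.0843 for Fos, -0.21 to 0.39 for Fosb and -0.18 to 0.25 for Jun. Imprints gave -0.34 to 1.11 for Fos, -0.40 to 1.77 for Fosl2, -0.47 to 0.22 for Jun, -0.43 to 0.87 for Junb and -0.93 to 1.20 for Jund. Dissections over imprints gave -0.62 to 0.0934 for Fos, -0.18 to 7.09 for Fosl1 and -0.18 to 0.0493 for Jun. The area interaction gave -0.10 to 0.55 for Fosb, -0.86 to 0.0146 for Fosl1, -0.40 to 0.0937 for Fosl2, -0.25 to 0.15 for Jun, -0.45 to 0.16 for Junb and -0.0673 to 0.14 for Jund. The stage interaction gave -1.02 to 0.40 for Fosl2, -0.27 to 0.46 for Jun, -1.14 to 0.13 for Junb and -1.06 to 1.12 for Jund. The correlations of Fos gave -0.0537 to 0.79 with Fosb, -0.49 to 0.11 with Fosl2 and -0.29 to 0.57 with Jund in the OFC, and -0.51 to 0.92 with Fosl1 and -0.45 to 0.49 with Fosl2 in the mPFC. That of Fos and Junb lay between 0.913 and 0.987 in the OFC, where the exact permutation p was 0.05 without perseverer 3, and between 0.889 and 0.993 in the mPFC.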

Other observations

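Over the 12 dissections with the mean of each area removed, the other family genes had other close companions than Fos and Junb. Jun was most like Hnrnph2 (r = 0.977), Map2k4 (0.966), Appbp2 (0.965), Gprasp2 (0.963) and Kifbp (0.961) among 11387 genes; Map2k4 encodes a kinase that activates JNK, the kinase of the Jun protein. Fosl2 was most like Lzts1 (0.965), Stk35 (0.934), Cnot6 (0.927), Nr2c2 (0.925) and Cdk14 (0.923), and Jund was most like Asic2 (0.925), Klf16 (0.923), Slc35c2 (0.916), Med26 (0.915) and Unc5a (0.911). Within the family, Jund and Fosb had r = 0.668 and Fosl2 and Jun r = -0.326. These are descriptions over libraries that share tissue and depth differences.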
